A study of Mus musculus with 12 samples.

Results

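The genes described here are the heavy-chain V genes of the mouse, whose symbols begin with Ighv, as counted in RNA of splenic B cells. The read count file lists 46078 genes, and 185 of them have such a symbol. After 70 pseudogenes were left out by their annotated biotype, 115 genes remained, and 103 of these had at least 100 counts in total over the 12 libraries. The members were thus chosen by their total count and by no other measured value. The members nearest the minimum were Ighv2-7 with 102 counts and Ighv11-1 with 132, and the nearest genes left out were Ighv6-5 with 77 counts and Ighv1-62-3 with 62. The 103 members held 102 to 16981 counts each, with a median of 2301, and all lie on the minus strand of chromosome 12.

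Spleens of C57BL/6 mice aged 8 to 12 weeks gave the B cells, which were isolated with a magnetic kit as follicular (FO) cells and as marginal zone (MZ) cells before their RNA was sequenced. Each cell type was taken from control and from CKO mice, which makes 4 groups of 3 libraries. The control mice carried VAVcre alone, and their libraries bear the genotype tag WT, while the CKO mice carried VAVcre together with the conditional Zbtb24 allele. The Vav promoter drives Cre across blood cells, so the deletion was not limited to B cells. Each library label holds an animal number, and the same 6 numbers occur once in FO and once in MZ, which was read as both cell types coming from the same mouse. The isolation kit separates cells by surface markers without a sorting gate, so other cells can remain. The controls are mice 1505, 1507 and 2003 and the CKO mice are 1512, 1514 and 2002.

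A B cell makes its heavy chain by joining one V gene to a D and a J segment, and with rare exceptions it then transcribes one productive rearrangement. The choice among V genes sets much of the antigen-binding site, and selection in the bone marrow and spleen changes which V genes are frequent in each B cell subset. FO B cells recirculate and feed germinal centres, whereas MZ B cells sit at the edge of the splenic white pulp and respond quickly to blood-borne antigens. V gene content and alleles differ between inbred mouse strains. ZBTB24 is a zinc finger protein whose loss in people causes an immunodeficiency with low antibody levels, and CDCA7 is a known target of it.

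Usage is given as the share of a library's counts over all 115 Ighv genes that are not pseudogenes, in percent. It weights each cell by its heavy-chain RNA, so a lower share through fewer cells that use a gene cannot be told apart from less RNA per cell. Usage compares the same gene between libraries, and levels of different genes are compared only after division by exon length. In sentences that list 6 values, the order is control mice 1505, 1507 and 2003, then CKO mice 1512, 1514 and 2002.

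At the end that joins the D segment, the reference sequences of close relatives differ by few bases and those of other members by more. The last 75 bases of the annotated V exon are given here for the 7 members with the largest fold between MZ and FO B cells among those that passed the test described further on and had a mean usage of at least 0.3% in the higher cell type, with Ighv10-3 added as the nearest relative of Ighv10-1. Sequences are from Gencode M21 transcripts on GRCm38, 5′ to 3′ on the coding strand, and capitals run from the conserved cysteine codon to the end of the exon.
Ighv10-1: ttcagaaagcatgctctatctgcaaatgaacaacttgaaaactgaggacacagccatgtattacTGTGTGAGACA
Ighv10-3: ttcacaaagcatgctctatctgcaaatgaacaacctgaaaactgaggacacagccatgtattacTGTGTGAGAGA
Ighv7-3: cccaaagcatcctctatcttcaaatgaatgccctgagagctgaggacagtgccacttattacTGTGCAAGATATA
Ighv6-3: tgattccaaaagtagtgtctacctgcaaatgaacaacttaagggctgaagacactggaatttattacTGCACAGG
Ighv6-6: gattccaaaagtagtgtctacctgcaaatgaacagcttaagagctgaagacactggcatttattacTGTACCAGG
Ighv15-2: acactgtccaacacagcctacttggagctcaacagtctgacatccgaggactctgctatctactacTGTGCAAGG
Ighv1-5: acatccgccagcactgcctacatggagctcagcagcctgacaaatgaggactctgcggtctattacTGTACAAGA
Ighv1-63: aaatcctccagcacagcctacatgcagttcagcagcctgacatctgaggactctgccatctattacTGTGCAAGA

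Aligned on the cysteine codon, Ighv10-1 and Ighv10-3 differed at 3 of 75 bases and Ighv6-3 and Ighv6-6 at 6 of 74. Ighv1-5 and Ighv1-63, both of the large Ighv1 family, differed at 10 of 75. Ighv10-1 and Ighv15-2, which changed in opposite directions, differed at 32 of 73. The genes lie at chr12:114479005-114479451 (Ighv10-1), chr12:114523441-114523905 (Ighv10-3), chr12:114153180-114153644 (Ighv7-3), chr12:114391712-114392169 (Ighv6-3), chr12:114434788-114435244 (Ighv6-6), chr12:114564578-114565012 (Ighv15-2), chr12:114513330-114513807 (Ighv1-5) and chr12:115495625-115496058 (Ighv1-63). Each is annotated as a V gene segment, and the bases shown are exonic.

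How far a count belongs to one gene depends on such similarity. Cutting every reference transcript into windows of 50 bases, 17 of 103 members had only windows found in no other Ighv gene or pseudogene, and the median member had 79.0% of such windows. In 11 members fewer than 50% were unique, the lowest being Ighv1-71 with 2.58%, which shared 97.4% of its windows with Ighv1-62-2. Ighv15-2 was fully unique, and Ighv1-5 reached 98.8%, Ighv7-3 93.3%, Ighv6-3 86.0%, Ighv6-6 80.8%, Ighv10-1 77.7%, Ighv1-63 65.9% and Ighv2-2 44.6%. Read length and strand are not given in the sources used here. The deposited counts keep reads with several matches in an entry apart from the genes, at 19.6% to 28.7% of a library. A member with few unique windows can lose reads to that entry, so shares of the less unique members are uncertain. One member, Ighv1-5, overlaps another annotated gene, Mir7094-2.

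The libraries held 36340116 to 44629250 counts in genes and 23674 to 34410 Ighv counts. Cdca7 stood at 31.7 to 42.4 CPM (counts scaled by TMM to a common library size) in the 6 control libraries and 0.550 to 5.37 CPM in the 6 CKO libraries. Zbtb24 itself was counted in all CKO libraries, at 41.8 to 50.04 CPM against 49.1 to 62.5 CPM in controls, and whether these reads lie in the deleted part cannot be read from a gene count. Neither gene passed edgeR's test of CKO against control after adjustment in the fit without a block (adjusted p of Zbtb24 0.194 in FO and 0.99995 in MZ, of Cdca7 0.564 and 0.291). With the replicate number as block, 1 of these 2 genes passed as lower in MZ B cells and 0 passed in FO B cells. All 6 MZ markers (Cr2, Cd1d1, S1pr3, Dtx1, Cd9, Myof) rose in MZ libraries, with a median log2 fold change of 2.31. Fcer2a, which encodes the FO marker CD23, stood at 513 to 592 CPM in FO and 65.8 to 94.1 CPM in MZ libraries, without overlap; this gene was chosen after its values were seen. T cell genes were also counted, with a summed level of 6 markers (Cd3e, Cd3d, Cd3g, Trac, Cd4, Cd8a) of 135 to 218 CPM in FO and 82.5 to 157 CPM in MZ libraries.

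Libraries of 2 mice stood apart from the others in V gene usage, in both cell types and 1 in each genotype. The distance between 2 libraries was taken as the summed absolute differences in usage divided by 2, which is the percent of usage that would have to move between genes to make them equal. In FO B cells control mouse 1507 and CKO mouse 1512 were 7.20% apart. Mouse 1507 was 41.0%, 40.6% and 38.5% from mice 1505, 2003 and 2002, and mouse 1512 was 41.6%, 41.9% and 39.2% from them. Mice 1505, 2003 and 2002 were 7.55% to 9.55% from one another.

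CKO mouse 1514 lay between, at 17.3% to 20.3% from mice 1505, 2003 and 2002 and 24.7% and 25.1% from mice 1507 and 1512. MZ B cells gave the same order, with 7.49% between mice 1507 and 1512, 5.98% to 6.31% among mice 1505, 2003 and 2002, and 38.7% to 41.2% between a mouse of the first pair and one of these. The FO and MZ libraries of one mouse were 11.2% to 13.8% apart, so mice of the same genotype could differ by several times more than the cell types did. All labels give one strain, and whether the mice differ in the sequence of the heavy-chain locus was not tested.

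**Figure D1:**
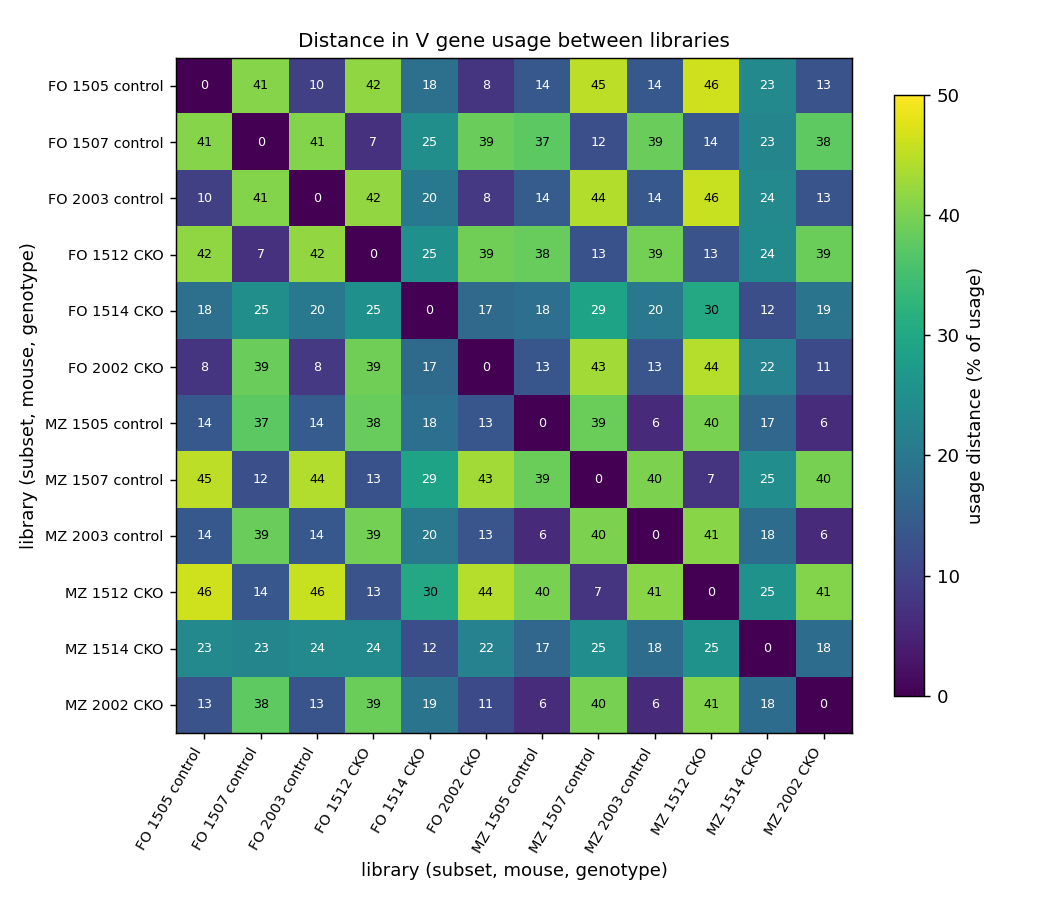
Distance in V gene usage between all 12 libraries, in percent of usage, with each row and column naming cell type, mouse and genotype. Both libraries of mice 1507 and 1512 lie close to each other and far from those of mice 1505, 2003 and 2002, with mouse 1514 between them, while the FO and MZ libraries of one mouse are 11.2% to 13.8% apart.

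The genes behind this spread were read from single members. Over the 100 members with counts in every mouse, the highest mouse had a median of 3.03 times the usage of the lowest, taking the mean of its FO and MZ libraries. The ratio was over 10, or 1 mouse or more was at 0, in 17 members, and it was under 2 in 23. Mouse 1512 was the lowest of the 6 in 32 members and the highest in 28, whereas mouse 1514 was the lowest in 2 and the highest in 8.

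Ighv5-16, a D-proximal gene of the Ighv5 family, had 0 counts in all 4 libraries of mice 1507 and 1512. A count of 0 allows a usage of up to 0.0127% and 0.0112% in the FO and MZ libraries of mouse 1507 and 0.0123% and 0.0115% in those of mouse 1512, for counting error only. In mice 1505, 2003, 1514 and 2002 its usage was 0.663%, 1.24%, 0.556% and 0.935% in FO, against 0.842%, 0.738%, 0.491% and 0.877% in MZ libraries. Ighv1-49 had no count in mouse 1512 in either cell type, and Ighv7-2 had none in mice 2003 and 2002.

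Among members with a mean usage of at least 0.3%, the 5 with the largest ratio of their highest library to their median library were Ighv8-11, Ighv1-67, Ighv2-9, Ighv3-8 and Ighv5-6. FO usage of Ighv8-11 was 0.0378%, 1.08%, 0.0475%, 1.03%, 0.410% and 0.0573%. Ighv2-9 gave 0.750%, 4.38%, 0.543%, 4.65%, 1.90% and 0.609%, and Ighv1-67 0.253%, 2.64%, 0.229%, 2.53%, 1.04% and 0.283%. In each of them mice 1507 and 1512 were highest and mouse 1514 came next. The same 3 mice were highest for Ighv3-8 (0.523%, 1.90%, 0.508%, 2.59%, 1.45% and 0.522%) and for Ighv5-6 (1.38%, 4.56%, 1.16%, 4.28%, 2.40% and 1.25%).

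Other abundant members showed the reverse order. FO usage of Ighv1-26 was 4.70%, 0.739%, 4.45%, 0.772%, 3.17% and 4.39%, and of Ighv1-82 it was 4.16%, 1.39%, 4.13%, 1.35%, 2.98% and 4.15%. Ighv1-72, the V gene that dominates the C57BL/6 response to the hapten NP, was at 1.23%, 0.224%, 1.32%, 0.218%, 1.14% and 1.41%, but only 7.49% of its 50-base windows are unique. Mice 1507 and 1512 were the lowest for all 3 genes in FO B cells, and their values did not overlap those of the other 4 mice.

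The reads of V pseudogenes moved with these mice as well. They made up 7.80% and 6.01% of all Ighv counts in the FO and MZ libraries of mouse 1507, 6.995% and 6.74% in mouse 1512, and 3.82% and 3.53% in mouse 1514. In mice 1505, 2003 and 2002 the share was 0.766% to 1.12%. Ighj1, the first J segment, stood at 1.41 and 1.22 CPM in the FO and MZ libraries of mouse 1507 and at 1.09 and 1.19 CPM in mouse 1512. It was at 2.14 and 2.24 CPM in mouse 1514 and between 2.82 and 4.02 CPM in the other 3 mice.

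**Figure D2:**
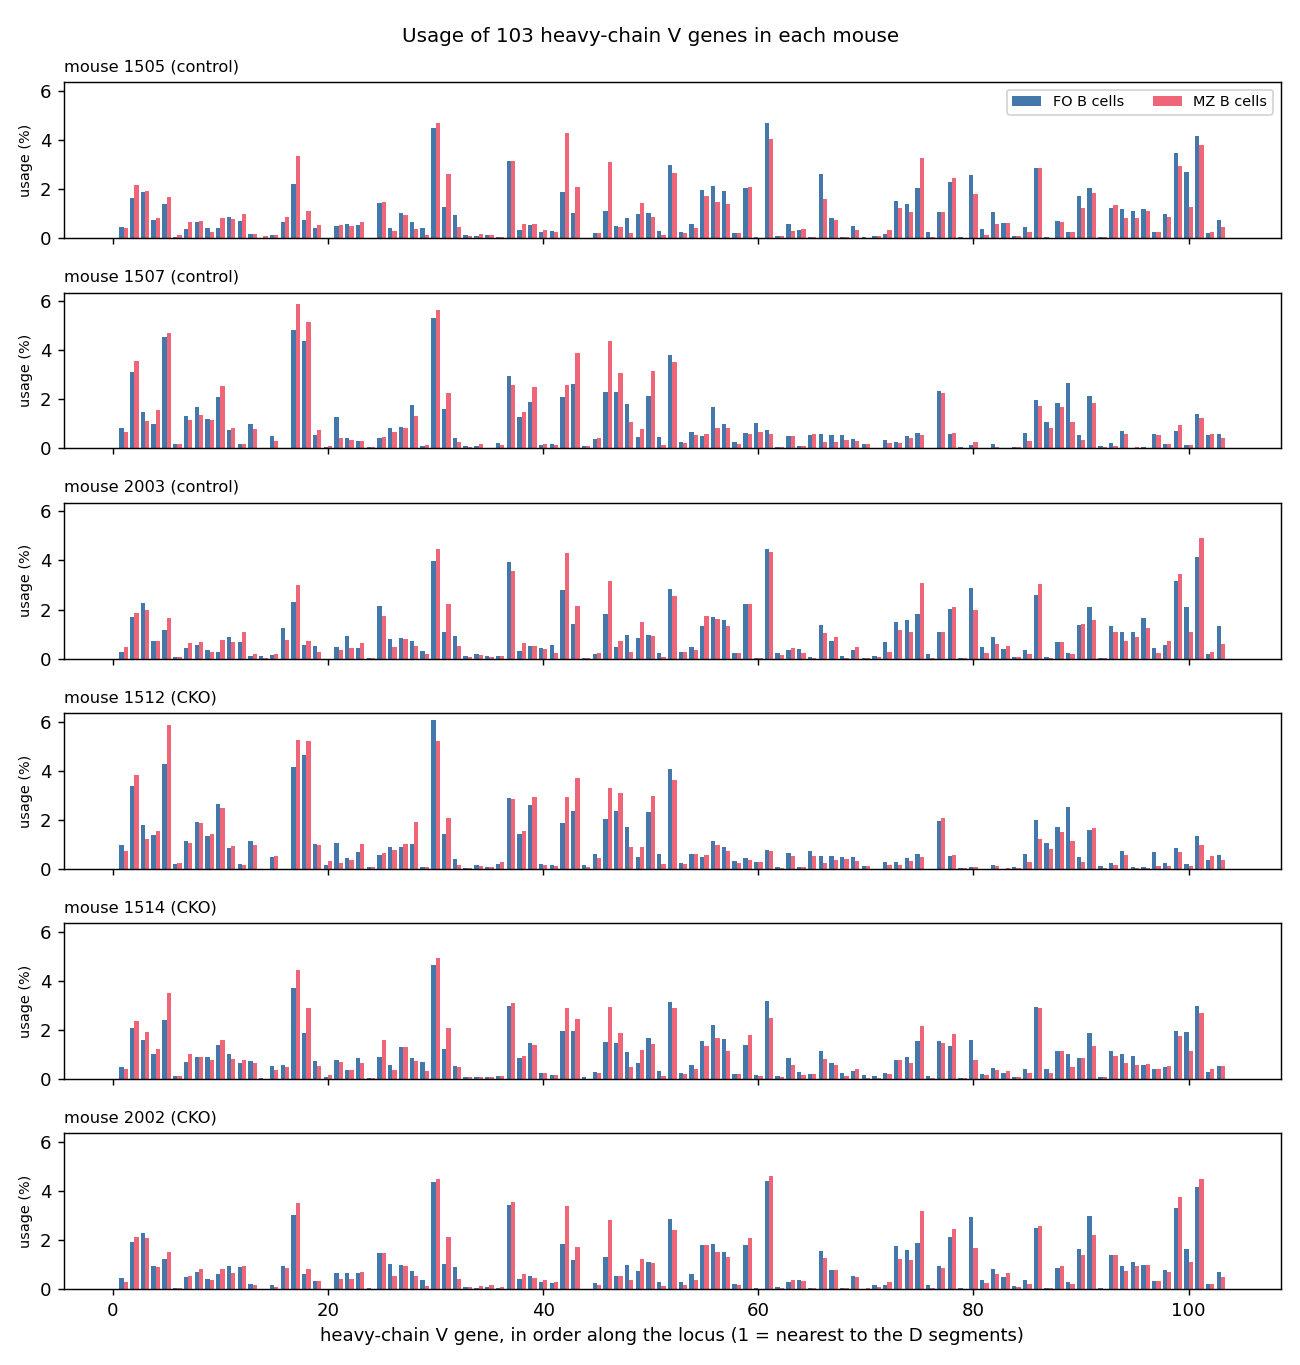
Usage of the 103 members (y axis, percent of Ighv counts) in order along the locus from the D segments outwards (x axis), with 1 panel per mouse and bars for FO and MZ B cells. Mice 1507 and 1512 have their tallest bars in the first part of the locus, further tall bars in the middle part and a smaller summed share in the far part. Mice 1505, 2003 and 2002 also have tall bars near the far end, and FO and MZ bars of a mouse follow each other.

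Per exon base, the most used members over all 12 libraries were Ighv9-3 with 5.08% of the length-scaled usage, Ighv5-17 with 3.45%, Ighv3-6 with 3.33%, Ighv1-9 with 3.26% and Ighv1-26 with 3.05%. Ighv5-6, Ighv1-82, Ighv6-3, Ighv2-2 and Ighv10-1 followed with 2.94% to 2.53%, and these 10 genes together held 31.9%. Neighbours in this order overlap in their range of usage over the 12 libraries. Division by exon length does not adjust for the differing share of unique windows, so the order is approximate. Ighv9-3 varied little, with a usage of 4.49%, 5.31%, 3.97%, 6.05%, 4.66% and 4.37% in FO B cells and 4.70%, 5.63%, 4.45%, 5.22%, 4.91% and 4.50% in MZ B cells.

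The first comparison asked how V gene usage differs between MZ and FO B cells. Ighv10-1, Ighv7-3, Ighv6-3, Ighv6-6, Ighv5-17 and Ighv2-2 rose in MZ B cells, by 1.15 to 1.95 times in mean usage. Ighv15-2, Ighv1-5, Ighv1-63 and Ighv1-71 fell. Each of these 10 genes moved the same way in 6 of 6 mice on the usage scale.

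In edgeR's quasi-likelihood test of MZ against FO averaged over both genotypes, with Benjamini-Hochberg adjustment over all 18546 genes tested, 6 of 103 members passed as higher and 4 as lower. Of all genes tested, 19.7% passed as higher and 18% as lower, so fewer members were called than genes in general. The fit with the mouse as a block, which removes the differences between mice that both cell types share, called 20 members higher and 30 lower, against 25.5% and 25% of all genes. Members then stood close to the background. The median log2 fold change of the members was -0.11 without the block and -0.12 with it, and that of all genes was -0.01 in both fits.

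In the fit without the block the median SE of a log2 fold change was 0.38 over the members and 0.12 over all genes, and with the block it was 0.12 and 0.09. Without the libraries of mice 1507 and 1512, an alternative chosen after seeing the data, 8 of 102 members were called higher and 11 lower, against 13.6% and 13.1% of all genes.

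Ighv10-1 had the smallest adjusted p among the members. Its usage was 1.11%, 2.29%, 1.81%, 2.05%, 1.49% and 1.30% in FO, against 3.09%, 4.36%, 3.15%, 3.29%, 2.93% and 2.81% in MZ libraries. All 6 MZ libraries lay above all 6 FO libraries. The log2 fold change was 1.05 ± 0.09 (SE), with an edgeR adjusted p of 5.07e-07, and the exact sign-flip test over the 6 mice gave p = 0.03125, the smallest it can give. Ighv10-3, the other member of its family, went from 0.979%, 0.477%, 0.858%, 0.484%, 0.650% and 0.760% in FO to 1.44%, 0.780%, 1.50%, 0.875%, 1.19% and 1.24% in MZ. It was higher in MZ in every mouse although the groups overlap. It passed edgeR's test only with the mouse as block (log2 0.80 ± 0.09, adjusted p = 7.32e-09, against 0.14 without).

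Ighv7-3 usage was 1.29%, 1.61%, 1.08%, 1.42%, 1.24% and 1.04% in FO, against 2.61%, 2.27%, 2.22%, 2.08%, 2.07% and 2.15% in MZ B cells. The 6 MZ values again lay above the 6 FO values, with a log2 fold change of 0.90 ± 0.12 and an edgeR adjusted p of 3.40e-05. Mice 1507 and 1512, which stood apart in so many genes, lay within the range of the others for this gene in MZ B cells. In FO B cells they were the 2 highest, at 1.61% and 1.42%.

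Of the 3 Ighv6 genes, Ighv6-3 and Ighv6-6 rose, and the rare Ighv6-7, at no more than 0.135% of usage in any library, did not pass in either fit (log2 -0.42 without and -0.46 with the block). For Ighv6-3 usage was 1.87%, 2.10%, 2.80%, 1.86%, 1.94% and 1.84% in FO, against 4.27%, 2.57%, 4.31%, 2.94%, 2.88% and 3.39% in MZ libraries. Only the FO value of mouse 2003 reached into the MZ range. The log2 fold change was 0.79 ± 0.26 with an edgeR adjusted p of 0.041. This call was lost when any of 9 single libraries was left out, with an adjusted p of up to 0.0933, and held with the mouse as block (3.99e-08). Ighv6-6 usage was 1.03%, 2.64%, 1.40%, 2.37%, 1.96% and 1.18% in FO, against 2.08%, 3.87%, 2.13%, 3.69%, 2.43% and 1.74% in MZ. The groups overlap, with mice 1507 and 1512 high in both cell types, and the within-mouse direction is the same in all 6. Its log2 fold change was 0.68 ± 0.15 (adjusted p = 0.00406, edgeR).

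Smaller differences were found for 2 abundant genes. Ighv5-17 usage was 2.20%, 4.83%, 2.32%, 4.14%, 3.70% and 3.04% in FO, against 3.37%, 5.87%, 2.99%, 5.23%, 4.44% and 3.51% in MZ (log2 0.41 ± 0.11, edgeR adjusted p = 0.00945). Ighv2-2 usage was 1.63%, 3.10%, 1.69%, 3.39%, 2.09% and 1.92% in FO, against 2.16%, 3.56%, 1.87%, 3.81%, 2.37% and 2.13% in MZ. Its log2 fold change of 0.28 ± 0.10 passed narrowly (edgeR adjusted p = 0.0471), and without mice 1507 and 1512 it did not (0.0920). The call was lost in 11 of 20 alternatives, with an adjusted p of up to 0.617 when library size was set to the Ighv total. Mice 1507 and 1512 were highest for both genes in both cell types.

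Among the members that fell, Ighv15-2, the only gene of its family, had the largest fold among those that passed without the block and had a mean usage of at least 0.3% in FO B cells. FO usage was 0.282%, 0.444%, 0.229%, 0.616%, 0.341% and 0.301%, and MZ usage was 0.128%, 0.124%, 0.0813%, 0.199%, 0.114% and 0.142%. Every FO library lay above every MZ library, with a 2.81-fold higher mean in FO. The log2 fold change, MZ over FO, was -1.38 ± 0.17 (edgeR adjusted p = 1.73e-05).

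Ighv1-63, a distal gene of the Ighv1 family, had 0.465%, 0.612%, 0.333%, 0.620%, 0.428% and 0.386% in FO, against 0.254%, 0.296%, 0.200%, 0.268%, 0.230% and 0.199% in MZ, without overlap (log2 -0.89 ± 0.13, edgeR adjusted p = 6.96e-05). For Ighv1-5, FO usage was 0.831%, 1.80%, 0.956%, 1.70%, 1.09% and 1.01% and MZ usage 0.191%, 1.06%, 0.284%, 0.879%, 0.508% and 0.392%. The fold was larger in mice 1505 and 2003 than in mice 1507 and 1512. The log2 fold change was -1.13 ± 0.30 (edgeR adjusted p = 0.0142), and it was -1.56 without mice 1507 and 1512. Ighv1-71, at a mean usage of 0.0684% in FO, against 0.0333% in MZ, also passed (log2 -0.91 ± 0.34, edgeR adjusted p = 0.0466), but it shares nearly all of its sequence with Ighv1-62-2.

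**Figure D3:**
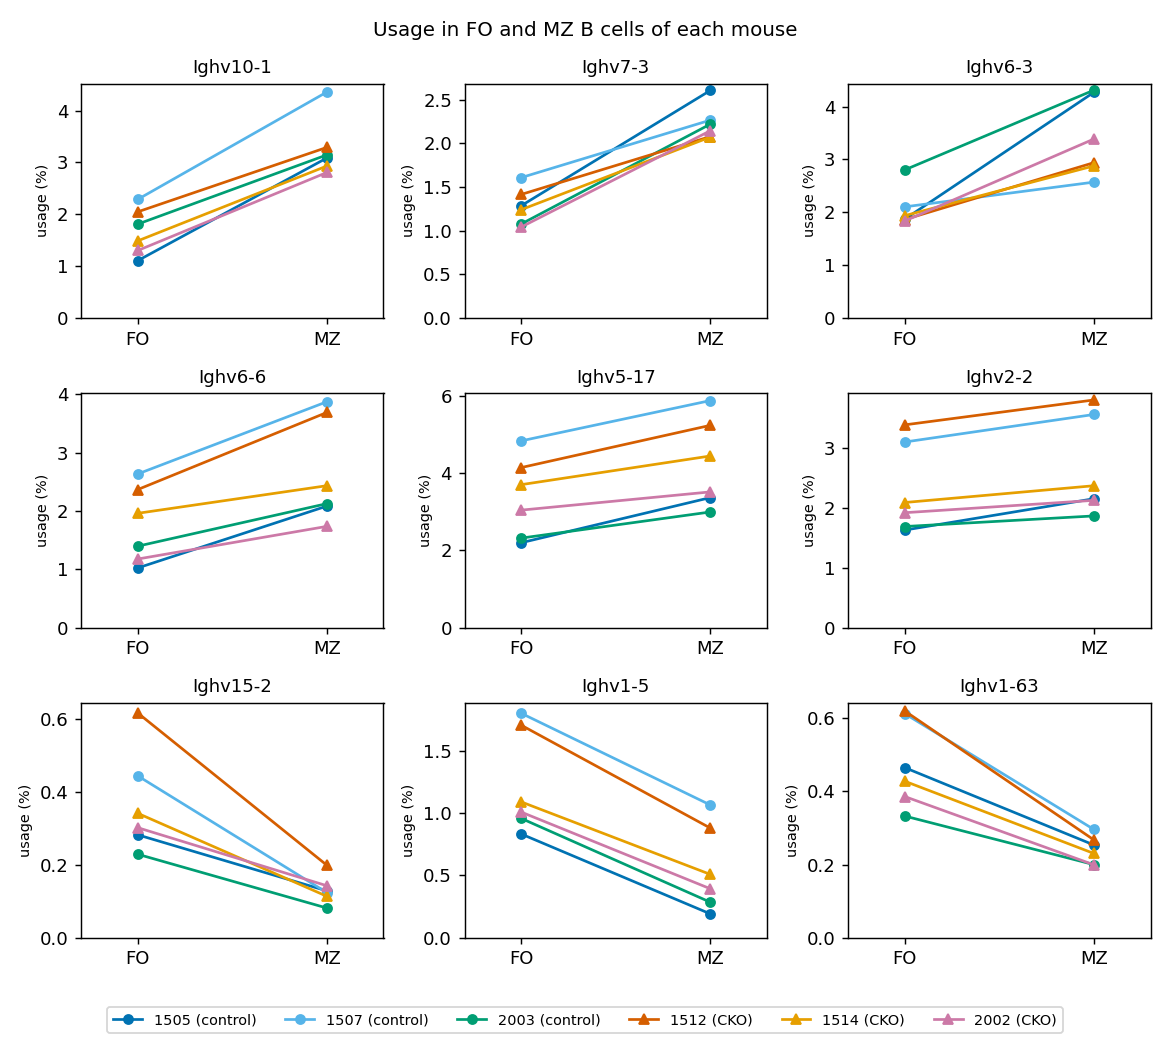
Usage in percent of Ighv counts (y axis, from 0) of 9 members in FO and MZ B cells (x axis), with 1 line per mouse, circles for control and triangles for CKO mice. All lines rise for Ighv10-1, Ighv7-3, Ighv6-3, Ighv6-6, Ighv5-17 and Ighv2-2 and fall for Ighv15-2, Ighv1-5 and Ighv1-63.

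The block added members whose usage differs strongly between mice, named here after their values were seen. Ighv5-6 and Ighv2-9 were higher in MZ (log2 0.42 ± 0.07 and 0.47 ± 0.07), with edgeR adjusted p values of 1.24e-05 and 7.63e-07 in that fit. Ighv1-81, Ighv14-4 and Ighv1-67 were lower (-0.75 ± 0.10, -0.79 ± 0.12 and -0.74 ± 0.13). For Ighv1-81, FO usage of 2.70%, 0.156%, 2.11%, 0.189%, 1.93% and 1.63% stood against MZ usage of 1.27%, 0.131%, 1.09%, 0.126%, 1.12% and 1.13%. Mice 1507 and 1512 were far below the others in both cell types, and MZ was lower than FO within every mouse.

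The largest fold of any member was that of Ighv8-6, a rare distal gene. Its usage was 0.244%, 0%, 0.190%, 0.0082%, 0.125% and 0.175% in FO, against 0.0657%, 0.0112%, 0.0271%, 0.0076%, 0.0334% and 0.0316% in MZ libraries. It was lower in MZ in all mice but mouse 1507, whose FO library had no count (which allows up to 0.0127%), and mice 1507 and 1512 were near 0 in both cell types. It passed with the block (log2 -2.004 ± 0.30, edgeR adjusted p = 3.60e-06) and not without (log2 -2.10, adjusted p = 0.143).

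Both genotypes gave the comparison separately. In the control mice 3 of 101 members were called higher and 2 lower, against 14.9% and 13% of all genes, and in the CKO mice 5 of 102 higher and 3 lower, against 10.5% and 7.78%. The 5 members called in control mice were Ighv10-1, Ighv7-3, Ighv6-6, Ighv15-2 and Ighv1-63, and all 5 were called in CKO mice in the same direction, which is 100% of the first list and 62.5% of the second. With the mouse as block the calls were 15 higher and 25 lower in control mice (22.4% and 21.3% of all genes) and 16 and 15 in CKO mice (19.2% and 16.6%). Of these, 22 were shared and had the same direction, or 55% of the control list and 71.0% of the CKO list. The control and CKO mice are separate, so the 2 lists share no library. How far such lists overlap over all genes is not given here, so the overlap among members has no background.

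The log2 fold changes in control and CKO mice were 1.07 ± 0.14 and 1.04 ± 0.10 for Ighv10-1, 0.90 ± 0.17 and 0.91 ± 0.15 for Ighv7-3 and 0.73 ± 0.20 and 0.64 ± 0.19 for Ighv6-6. They were -1.44 ± 0.25 and -1.303 ± 0.24 for Ighv15-2, and -0.87 ± 0.21 and -0.90 ± 0.17 for Ighv1-63. The differences between genotypes are smaller than their errors. Ighv6-3 and Ighv5-17 passed in CKO mice (log2 0.82 ± 0.21 and 0.39 ± 0.10) and not in control mice (0.77 ± 0.46 and 0.44 ± 0.19), with values of similar size. Ighv1-5 likewise passed in CKO mice (-0.98 ± 0.21) and not in control mice (-1.27 ± 0.57), where it did not pass with the block either (edgeR adjusted p = 0.0844). Over 13 alternatives the Ighv6-6 call was lost in 5 in control and in 8 in CKO mice, and in CKO mice that of Ighv6-3 was lost in 6 and that of Ighv5-17 in 5. In alternatives chosen after seeing the data, the control counts became 11 higher and 14 lower without mouse 1507, against 12.7% and 11.2% of all genes, and the CKO counts became 2 and 2 without mouse 1512, against 3.35% and 2.34%.

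On the usage scale, 11 members were higher in MZ B cells in 6 of 6 mice and 22 were lower in 6 of 6. On the CPM scale these counts were 13 and 15 of 103 members, against 22.3% and 21.7% of all genes. Total Ighv RNA hardly differed between the cell types, with Ighv counts of 762 ± 163 CPM (SD, n = 3, here over all gene counts) in FO control and 752 ± 134 CPM in MZ control libraries, and 724 ± 152 and 740 ± 117 in the CKO groups. It differed between mice, at 561 to 620 CPM in the libraries of mice 1507 and 1512 and 746 CPM in those of mouse 1514. In mice 1505, 2003 and 2002 it was 813 to 871 CPM. Whether Ighv reads of some mice were lost in alignment was not tested.

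By family, Ighv1, the largest with 49 members, fell from a mean of 47.8% of usage in FO to 42.6% in MZ, a difference of -5.22 ± 2.45 percentage points (SD over 6 mice), with all 6 mice lower. Its share varied between mice from 35.8% to 58.2% in FO B cells. With the block, edgeR called 5 Ighv1 members higher and 22 lower, and without it 0 and 3. Over all genes tested, the shares called were 25.5% and 25% with the block and 19.7% and 18% without. The difference in Ighv1 share was largest in mouse 1505, and without 1 mouse at a time it ranged from -5.78 to -4.45 points.

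Several families smaller than Ighv1 gained, while others fell or hardly changed. Ighv10 with 2 members went from 2.38% to 4.44% (2.06 ± 0.297 points), Ighv6 with 3 members from 3.93% to 6.12% (2.19 ± 0.728) and Ighv7 with 4 members from 2.04% to 3.02% (0.985 ± 0.302). Ighv2 with 9 members rose by 1.34 ± 0.493 points. All 6 mice were higher for each of these 4 families. Ighv5 was higher in 5 of 6 mice (1.06 ± 0.864).

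Ighv8 with 7 members was lower in all 6 mice (-1.32 ± 0.743), and Ighv14 with 4 members was lower in 5 of 6 (-0.599 ± 0.611), with mouse 1514 as the exception. Ighv3 and Ighv9 differed by less than the spread between mice (0.103 ± 0.317 and 0.0738 ± 0.25). The single-gene families Ighv4 and Ighv15 and the summed share of the 2 Ighv11 genes were lower in MZ in every mouse. These family values are descriptions of lists chosen with the results known.

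**Figure D4:**
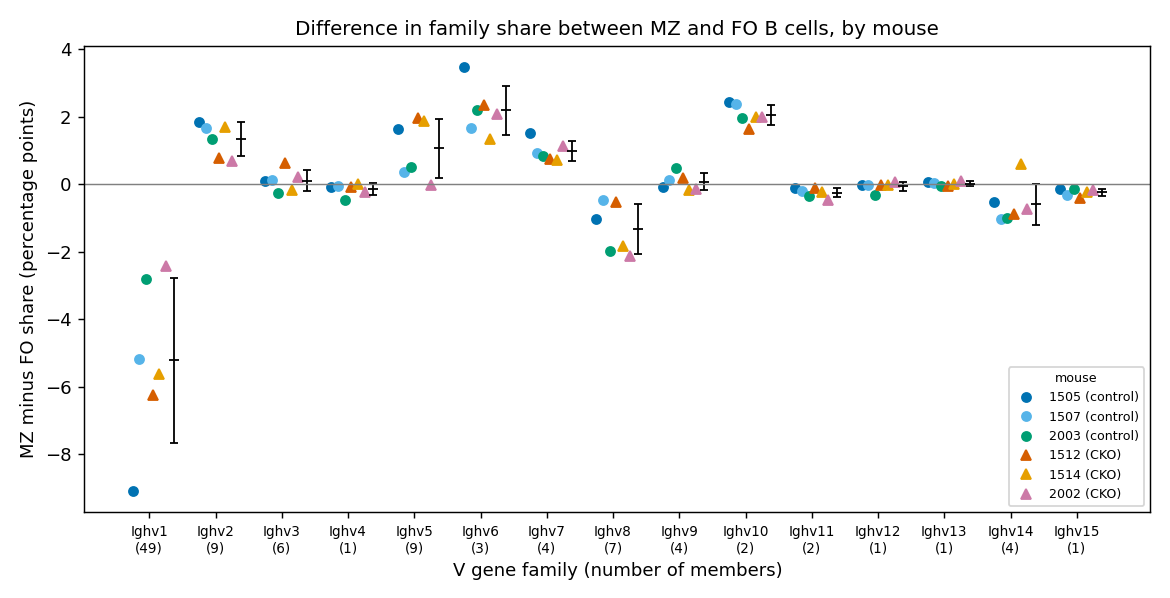
Difference in usage share between MZ and FO B cells (y axis, percentage points) for 15 V gene families (x axis, number of members in brackets), with 1 point per mouse and the mean ± SD of 6 mice in black. Ighv1 and Ighv8 lie below 0 and Ighv2, Ighv6, Ighv7 and Ighv10 above 0 in all 6 mice, and Ighv3 and Ighv9 scatter around 0.

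The locus was split by rank into 3 segments of 35, 34 and 34 members. The D-proximal segment spans chr12:113578504-114254051, the middle segment chr12:114262652-114991580 and the distal segment chr12:115024026-116000461. Distal genes held 39.0%, 21.4%, 38.1%, 19.8%, 30.4% and 38.1% of usage in FO B cells and 33.9%, 17.6%, 34.6%, 14.7%, 26.4% and 35.5% in MZ B cells. The distal share was lower in MZ within every mouse, by -3.99 ± 0.995 points (SD over 6 mice), yet mice 1507 and 1512 were lower in both cell types than any other mouse was in either.

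D-proximal genes gained 2.31 ± 1.64 points in MZ (6 of 6 mice) and middle genes 1.71 ± 1.07 (5 of 6). In edgeR's test with the block, 10 D-proximal members were higher and 4 lower, 6 middle members were higher and 10 lower, and 4 distal members were higher and 16 lower. Of all genes tested, 25.5% were higher and 25% lower in that fit. Without the block the counts were 3 and 0, 3 and 2, and 0 and 2, against 19.7% and 18% of all genes.

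Family and position overlap in part. All 34 distal members are Ighv1 or Ighv8 genes, and the D-proximal segment has neither, but the middle segment holds 21 Ighv1 genes beside 13 of other families. Ighv1 genes differed by -2.50 ± 1.45 points in the middle and -2.72 ± 1.64 points in the distal segment (SD over 6 mice), with 6 of 6 mice lower in both. The 13 other middle genes gained 4.21 ± 1.02 points, with 6 of 6 mice higher. With the block, 1 middle Ighv1 gene was higher and 9 lower, 4 distal Ighv1 genes were higher and 13 lower, and 5 of the other middle genes were higher and 1 lower. Over all genes tested, 25.5% were higher and 25% lower in that fit.

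**Figure D5:**
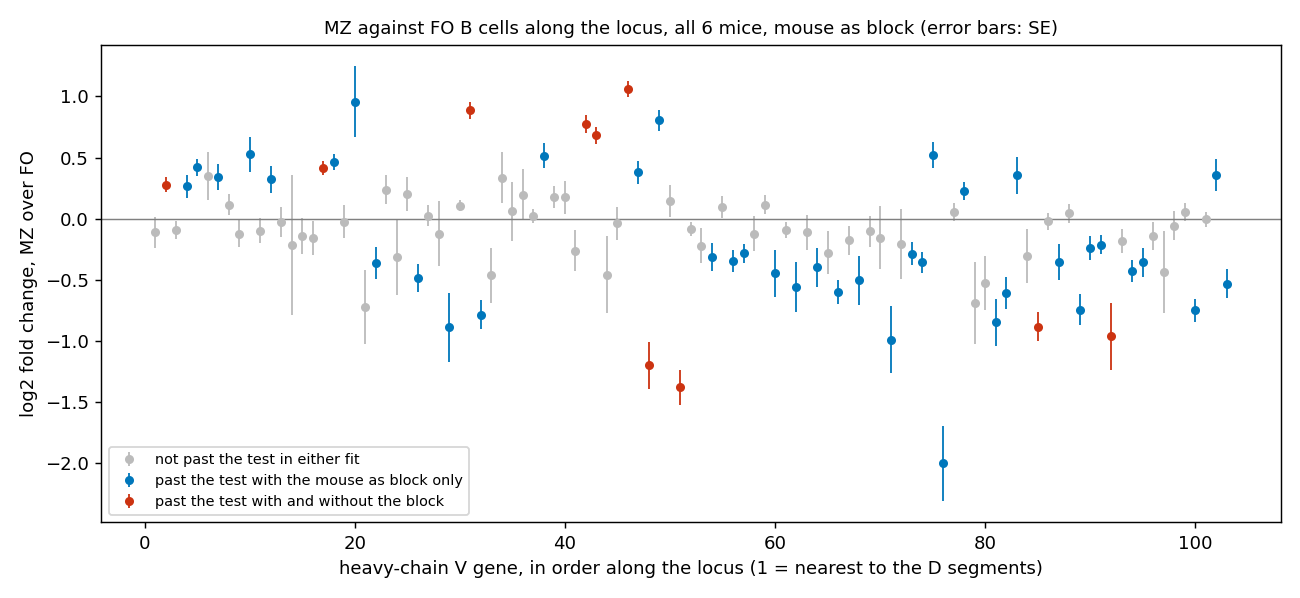
Fitted log2 fold change of MZ over FO B cells (y axis) for the 103 members in order along the locus (x axis), from the fit with the mouse as block over all 6 mice, with SE as error bars. Members that passed with and without the block, 6 above and 4 below 0, are marked apart from those that passed with the block alone, and members below 0 are frequent in the distal part.

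MZ usage was also spread over fewer genes. The effective number of genes, the exponential of the Shannon entropy of usage, was 64.1, 59.5, 65.5, 59.5, 71.0 and 65.1 in FO, against 60.7, 52.6, 59.7, 52.3, 64.6 and 60.5 in MZ B cells. It was lower in MZ in every mouse, by -5.70 ± 1.46 genes (SD over 6 mice). Mouse 1514 had the highest number in both cell types. The 10 most used genes of a library held 30.2% to 37.2% of usage in FO and 33.1% to 42.9% in MZ libraries.

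Members with a known role were followed by name. Ighv11-2, used by B-1 cells that bind phosphatidylcholine, was at 0.418%, 0.849%, 0.811%, 0.899%, 0.584% and 1.01% in FO, against 0.297%, 0.671%, 0.467%, 0.776%, 0.374% and 0.557% in MZ. It was lower in MZ in all 6 mice and passed edgeR only with the block (log2 -0.49 ± 0.11, adjusted p = 0.000558, against 0.110 without). Ighv12-3, used by the same B-1 specificity, was at 0.144% to 0.564% in FO, against 0.111% to 0.304% in MZ libraries and did not pass over both genotypes (edgeR adjusted p = 0.721 without and 0.207 with the block). With the block it fell in control mice (log2 -0.59 ± 0.20, edgeR adjusted p = 0.0114), and in CKO mice the value was 0.11 ± 0.23. The difference between the genotypes, 0.70 ± 0.32 in that fit, did not pass (edgeR adjusted p = 0.896).

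Ighv7-1, the gene of the T15 antibodies to phosphorylcholine, was at 0.347% to 1.01% in FO, against 0.288% to 0.963% in MZ libraries, with a log2 fold change of -0.0045 ± 0.23. Ighv5-2, the member nearest the D segments and a favoured gene of early B cell precursors, was at 0.288% to 0.973% in FO, against 0.313% to 0.722% in MZ (log2 -0.12 ± 0.18). Neither passed in either fit, and for both genes the mice spread more widely than the cell types. Ighv1-72 had a log2 fold change of -0.11 ± 0.91 without and -0.18 ± 0.10 with the block and passed neither.

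Other genes of the heavy chain and of V gene expression give the setting. Of 11 constant and J segment genes tested over both genotypes without the block, Ighm rose in MZ B cells (log2 0.42 ± 0.07) and Ighd (-1.91 ± 0.09) and Ighj4 fell, and with the block 1 rose and 6 fell. Of 11 genes for recombination and V promoter factors, Yy1 and Pou2f2 fell without the block and 5 fell with it, and 0 rose in either. Of all genes, 19.7% rose and 18% fell without the block, and 25.5% and 25% with it. Rag1, which cuts the DNA for recombination, was at 0.157 to 1.56 CPM in all libraries. Summed levels of 6 plasma cell markers (Sdc1, Prdm1, Jchain, Xbp1, Tnfrsf17, Slpi) were 228 to 315 CPM in FO and 192 to 277 CPM in MZ libraries, and those of 6 B-1 markers (Bhlhe41, Zbtb32, Cd5, Spn, Plscr1, Ahr) were 186.1 to 274 CPM and 204 to 274 CPM. In edgeR's test over both genotypes with the block, 1 of the 6 plasma cell markers rose in MZ B cells (Prdm1) and 4 fell (Sdc1, Jchain, Tnfrsf17, Slpi), with a median log2 of -0.52, and without it 1 rose and 1 fell. In both fits 3 of the 6 B-1 markers rose and 2 fell, and all 6 T cell markers fell. Of a wider list of 10 plasma cell genes, 4 rose (Prdm1, Irf4, Mzb1, Eaf2), and the number that fell was 4 with and 1 without the block. The summed level of these 10 genes was higher in MZ, at 611 to 695 CPM in FO and 892 to 963 CPM in MZ libraries. No marker was at 0 counts, and the part of plasma, B-1 or T cells in the usage differences was not tested.

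The second comparison asked whether loss of Zbtb24 changed V gene usage. No member passed in either cell type. In FO B cells edgeR called 0 of 102 members, against 0.09% of all genes, with 1 member at an unadjusted p under 0.05 and 0 calls by DESeq2. In MZ B cells it called 0 of 99 members, against 0.0793% of all genes, with 1 at an unadjusted p under 0.05 and 0 by DESeq2. Without mice 1507 and 1512 the calls were again 0 in both, against 0.0505% of all genes in FO and 0.0281% in MZ, with 7 of 101 and 8 of 98 members at an unadjusted p under 0.05.

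These tests could see only large changes in a typical member. The median SE of a log2 fold change was 0.51 over the members and 0.15 over all genes in FO, and 0.53 and 0.16 in MZ. The members with the smallest p in FO were Ighv2-3, with a log2 fold change of 0.37 ± 0.13, and Ighv8-2, with 0.47 ± 0.25, both at an edgeR adjusted p of 0.9995. Ighv2-3 usage was 0.747%, 1.01%, 0.722%, 1.38%, 1.01% and 0.962% in FO B cells, so CKO and control mice overlap.

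In MZ B cells the smallest p values were those of Ighv3-5 (0.75 ± 0.33) and Ighv10-1 (-0.20 ± 0.09), both with an edgeR adjusted p of 0.99995. Ighv3-5 usage was 0.0657%, 0.127%, 0.0982%, 0.268%, 0.117% and 0.111%, and its log2 fold change was 0.44 without mice 1507 and 1512. For Ighv9-3, the most used gene, the genotype difference was 0.05 ± 0.10 in FO and 0.00 ± 0.09 in MZ.

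Few members had control and CKO usage that did not overlap. In FO B cells this held for Ighv3-1 alone, higher in all 3 CKO mice, and for 0 members in the other direction. In MZ B cells it held for Ighv14-3, higher in the CKO mice, and for Ighv7-3 and Ighv7-4, lower. On the CPM scale the counts were 1 and 0 in FO, where 4.44% of all genes were higher and 4.88% lower without overlap, and 1 and 2 in MZ, against 3.65% and 3.98%. For Ighv7-3 the MZ values were 2.61%, 2.27% and 2.22% in control and 2.08%, 2.07% and 2.15% in CKO mice. The exact permutation test of 3 against 3 mice gave p = 0.1 for each of these 4 genes, the smallest it can give.

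Distances in usage between mice of different genotype were also compared with those within a genotype. In FO B cells the closest pair was control mouse 1507 and CKO mouse 1512, and CKO mouse 2002 was 7.55% and 8.34% from control mice 1505 and 2003. Within the control group mice 1505 and 1507 were 41.0% apart, and within the CKO group mice 1512 and 2002 were 39.2% apart. The effective number of genes was 63.0 ± 3.12 (SD, n = 3) in control and 65.2 ± 5.74 in CKO FO libraries and 57.7 ± 4.43 and 59.1 ± 6.26 in the MZ libraries, differences below the spread between mice.

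The difference between the genotype effects in MZ and FO B cells was tested over all 12 libraries. edgeR called 0 of 103 members, against 0% of all genes, with 0 members at an unadjusted p under 0.05 and 0 calls by DESeq2. With the mouse as block the count was again 0, against 0.0216% of all genes, with 6 members at an unadjusted p under 0.05. Ighv3-5 and Ighv9-1 had the smallest p without the block, with differences of 0.96 ± 0.56 and 0.77 ± 0.60 on the log2 scale and an edgeR adjusted p of 0.99997.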

How the data were processed

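The authors deposited raw read counts per Ensembl gene for 12 libraries. Per the submitters' processing notes, TopHat, HTSeq and DESeq2 were used with GRCm38/mm10. The annotation release, read length and strand are not given in the sources used here. The 5 summary entries were left out. Reads naming no gene made up 43.2% to 50.4% of a library.

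Symbols, biotypes and sequences came from Gencode M21. The counts of all genes were fitted by edgeR 4.0.16 under R 4.3.3 (filterByExpr, TMM, robust quasi-likelihood test, two-sided), with Benjamini-Hochberg adjustment and a threshold of 0.05. SE is the log2 fold change over the root of the F statistic. DESeq2 1.42.0 was an alternative. Scripts were tested on simulated data.

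FO and MZ libraries of an animal number were read as paired: their deviations from the group means correlated at 0.547 to 0.777 over all genes. Nothing in the labels says how each mouse was processed, so p-values measure the spread between these libraries.

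The members and lists were chosen with earlier results of these data known. Genes named are the 10 most used per exon base, called members with at least 0.3% usage (or the 2 smallest p), members of known role, the 5 with the largest ratio of highest to median library, and genes next to the count minimum. The full list of FO markers is not reported here.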

Additional observations from a re-analysis of the deposited data

Results flagged for a closer look

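Ighv8-2 was higher in MZ than in FO B cells in all 3 control mice and lower in all 3 CKO mice. Its usage was 0.201%, 0.389% and 0.190% in FO, against 0.219%, 0.409% and 0.230% in MZ libraries of control mice 1505, 1507 and 2003, a mean difference of 0.0263 ± 0.0121 points (SD). In CKO mice 1512, 1514 and 2002 it was 0.620%, 0.296% and 0.235% in FO, against 0.455%, 0.240% and 0.184% in MZ libraries, a mean difference of -0.0906 ± 0.0645 points. The MZ minus FO difference was -0.117 points in CKO relative to control mice. The difference between the genotypes did not pass edgeR's test, with a log2 value of -0.43 ± 0.38 and an adjusted p of 0.99997 (0.896 with the replicate block). Ighv8-2 was picked by a search of the named members for such opposite directions, which 1 of all 103 members showed. The share of all genes with such opposite directions is not given here, so this count has no background. It held 1035 counts over the 12 libraries, so the small differences in control mice rest on few counts.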

How the results depend on the processing

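Counts of called members in MZ against FO B cells depended on how the differences between mice entered the fit. With the replicate block they were 15 higher and 25 lower in control mice, 16 and 15 in CKO mice and 20 and 30 over both genotypes. With library size set to the Ighv total, 1 was higher in control mice, 1 higher in CKO mice and 7 lower over both. The replicate block together with that scaling, chosen after seeing the data, gave 13 and 24 in control mice, 10 and 16 in CKO mice and 14 and 32 over both. Leaving out mouse 1507 gave 11 and 14 in control mice, and leaving out mouse 1512 gave 2 higher in CKO mice. Without mice 1507 and 1512, 11 were lower over both genotypes, and 19 without mouse 1514 as well. Without a low-count filter 4 were lower in control mice and, in CKO against control MZ B cells, 1 was lower (Ighv2-7). Among members with 1000 or more counts, 1 was lower in control mice and 2 over both. Shares of all genes called are given above for the block and for the fits without mouse 1507, mouse 1512 or both. They are not given here for the other alternatives, including those that leave out 1 library. Those counts therefore cannot be set against the background.

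Leaving out 1 library gave 2 to 6 higher and 2 to 6 lower in control mice, 2 to 4 and 3 to 4 in CKO mice, and 4 to 7 and 3 to 5 over both. The highest control counts came without FO mouse 1507, and 2 higher in CKO mice came without FO mouse 1512 or MZ mouse 1514. Genotype counts stayed at 0 to 0. The ranges that follow leave out 1 mouse at a time, with both its libraries. The total Ighv level (log2 MZ over FO 0.01; -0.01 to 0.03) was -0.11 per exon base. The effective number (-5.70; -6.16 to -5.40) fell by 3.63 over members with 1000 or more counts. Ranges of family and position differences, in points, were -5.78 to -4.45 (Ighv1), 1.24 to 1.47 (Ighv2), -0.0036 to 0.176 (Ighv3), 0.877 to 1.27 (Ighv5), 1.94 to 2.36 (Ighv6), 0.878 to 1.04 (Ighv7), -1.49 to -1.16 (Ighv8), -0.0097 to 0.12 (Ighv9), 1.99 to 2.15 (Ighv10), -0.837 to -0.514 (Ighv14), 1.93 to 2.74 (D-proximal), 1.57 to 2.10 (middle) and -4.27 to -3.76 (distal).

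Of the values of named members under the alternatives, 52 lost the call and 421 did not, and no called value changed sign. The 421 include genotype values that were not called in the main fit. They also include usage differences with pseudogenes counted in, which have no test threshold. Beyond the samples, genes or scaling that each alternative changes, the cause was not tested. Between genotypes the replicate numbers pair no mice: same-numbered libraries correlated at 0.135 to 0.398 in FO and -0.108 to 0.429 in MZ B cells, and the replicate block called 0 members. Depth limits members with few counts, of which 29 had fewer than 1000 in all.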

Other observations

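Usage of Ighv8-8, an Ighv8 gene of the distal segment, was 2.56%, 0.131%, 2.87%, 0.0903%, 1.60% and 2.93% in FO B cells of control mice 1505, 1507 and 2003 and CKO mice 1512, 1514 and 2002. In MZ B cells it was 1.82%, 0.274%, 1.98%, 0.0917%, 0.761% and 1.67%. Ighv1-53, a gene of the same segment with 42.4% unique 50-base windows, was at 2.04%, 0.646%, 1.82%, 0.599%, 1.53% and 1.88% in the FO libraries, against 3.28%, 0.558%, 3.07%, 0.489%, 2.18% and 3.19% in the MZ libraries. It was higher in MZ in mice 1505, 2003, 1514 and 2002 and lower in mice 1507 and 1512. Igha, the constant gene of IgA, ranged from 104 to 485 CPM over the 12 libraries, within both genotypes.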
